A study of Homo sapiens with 10 samples.

Results

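The genes described here are the 4 tropomyosins TPM1, TPM2, TPM3 and TPM4, the 3 calponins CNN1, CNN2 and CNN3, smooth muscle actin ACTA2, transgelin TAGLN and the myosin regulatory light chain MYL9. They are 10 of the 23427 genes with a number in every library of at least 1 of the study's 2 expression tables, and they were chosen by gene name. Poly(A) RNA was sequenced from SHSY5Y (SH-SY5Y) cells, an established human neuroblastoma line, 72 h after transfection. In 1 table, 3 libraries from cells given 100 nM of an siRNA against LncND stood against 3 libraries from cells given a scrambled siRNA. In the other, 2 libraries from cells given 50 nM of a mimic of the microRNA miR-143-3p stood against 2 libraries from cells given a scrambled miRNA. The doses of the scrambled controls were not given in the sources used here. LncND is, in the series title, a primate long noncoding RNA that sequesters a microRNA and acts through it on Notch signaling. Both comparisons thus ask how the cells' RNA changes when that RNA is targeted or when the microRNA is added. All groups are the same cell line, and the labels do not say whether the libraries of a group came from separate cultures, so a p-value here sets a difference against a library-to-library spread that may be only technical. No entry was matched to LncND itself, so the extent of its knockdown was not analysed here.

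Tropomyosins are coiled-coil proteins that lie end to end along the actin filament and govern which proteins can reach it, myosin and cofilin among them. Calponins and transgelins bind the same filaments through a calponin homology domain, and ACTA2 and MYL9 belong to the filament and the motor of the smooth muscle contractile apparatus. Many of these genes are known targets of serum response factor (SRF), which binds a sequence called the CArG box and whose MRTF cofactors are freed when actin monomers are used up. miR-143 is best known from smooth muscle, where it is abundant. In neuroblastoma cells, several of these proteins serve the nonmuscle cytoskeleton.

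The mature miR-143-3p is shown first, because its seed, bases 2 to 8 from the 5′ end, in capitals, is the part that pairs with target transcripts. RefSeq places it at chr5:149428978-149428998 of GRCh38.p14, on the plus strand.
miR-143-3p: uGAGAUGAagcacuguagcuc

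The 3′ UTRs of the 10 genes in the GENCODE 29 basic annotation (GRCh38) were searched on the transcript strand for the seed's complement, TCATCTC, and for the overlapping word CATCTCA. A match to both is the 8-base word TCATCTCA. At least 1 match was found in TPM3 (6 of its 11 protein-coding transcripts), in TPM4 (5 of 6) and in TPM1 (1 of 17), and in none of the transcripts of the other 7 genes. The windows below, 1 per distinct match, are shown because TPM3, TPM4 and TPM1 are the genes whose levels after the mimic can be set against a match. Capitals mark the matched bases, and positions count from the first base of the 3′ UTR.
TPM3, base 841 in most transcripts with a match: tagccatgtgaaacTCATCTCAtt
TPM3, base 890 in the same transcripts: tgtctctagaagtgcCATCTCAat
TPM3, base 1824, in the longest 3′ UTRs only: ataggttaacactgaCATCTCAgg
TPM4, base 987: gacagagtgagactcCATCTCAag
TPM4, base 1377: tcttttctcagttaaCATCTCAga
TPM1, base 506, in 1 transcript: tggtactacaaaagaTCATCTCtt
Of the 11196 genes tested with the mimic that have an annotated 3′ UTR, 26.5% hold a match in at least 1 transcript. A match is a description of these letters, and which of a gene's transcripts the cells made was not analysed here.

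Promoter windows, from 250 bases before to 50 bases after a RefSeq start site (GRCh38.p14), were matched for 8 of the 10 genes, 14 windows in all. TAGLN and MYL9 had no window. An exact CArG box, read on both strands, lay in 2 of these 14 windows and in 454 of 35116 windows (1.29%) over the genome. Boxes with a mismatch or outside these windows were not searched for, so a gene without a box here may still have one. The 2 boxes are shown with 10 bases on each side, the box in capitals. They belong to CNN2, where the box begins 89 bases before the start in the window chr19:1026358-1026657, and to the most upstream TPM4 window, chr19:16067288-16067587, where it begins 173 bases before the start. Both windows are on the plus strand.
CNN2: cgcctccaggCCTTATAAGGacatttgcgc
TPM4: aatcctaggtCCAAATAAGGcgagggctgc

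The levels are FPKM, fragment numbers scaled to transcript length and library size, and can be compared between genes because they are per length. Of 8 noradrenergic neuroblast markers, 7 averaged at least 1 FPKM in every group, and TH was the exception. Of 8 markers of differentiated smooth muscle, only SMTN and SYNPO2 did, with MYOCD at most 0.0057 and MYH11 at most 0.156 FPKM in any library. Of 10 fibroblast or mesenchymal markers 8 averaged at least 1 FPKM, while PRRX1 stayed at the lowest listed value of 0.001 in every library. Of the Schwann cell markers, SOX10 stayed under 0.1 FPKM in every library, ERBB3 lay between 0.137 and 0.439, and S100B between 2.73 and 6.07. In the library LncND siRNA 1, a single small RNA gene, RNY4, had a value of 1225000 FPKM, and each other library had 0.001. Without that entry the summed FPKM of the 10 libraries ran from 423000 to 472600.

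The 10 genes spanned a wide range of levels. In the scrambled siRNA libraries TPM4 was the highest at 232.7 ± 7.41 FPKM, followed by TPM3 at 154.3 ± 5.12, CNN3 at 143.1 ± 2.84 and TPM1 at 79.5 ± 1.91 (mean ± SD, n = 3). CNN2, TPM2, ACTA2 and TAGLN followed between 18.2 and 1.62 FPKM, and CNN1 and MYL9 lay under 1 FPKM. The libraries of neighbouring genes in this order did not overlap in any of the 4 groups. TPM4, TPM3, CNN3 and TPM1 held the top 4 places in this order in 3 groups. With the mimic CNN3 was the highest at 164.4 ± 6.92 FPKM, and TPM4 the next at 117.7 ± 6.0 (mean ± SD, n = 2).

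**Figure D1:**
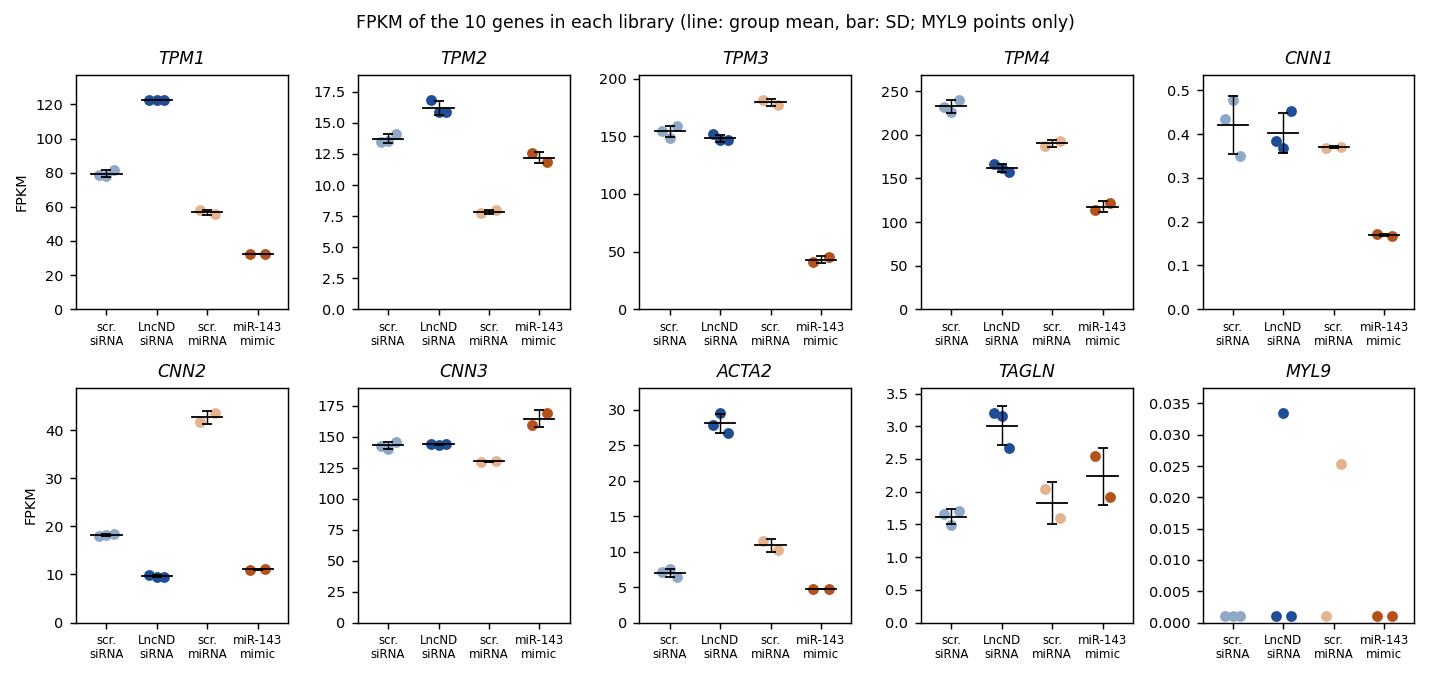
FPKM of each of the 10 genes (vertical axes, each from 0) in the 3 scrambled siRNA, 3 LncND siRNA, 2 scrambled miRNA and 2 miR-143-3p mimic libraries; points are libraries, lines group means and bars the SD, with points alone for MYL9. ACTA2 lies between 26.8 and 29.5 FPKM with LncND siRNA and at most at 11.5 elsewhere, and TPM3 between 40.7 and 45.1 with the mimic and at least at 146.4 elsewhere.

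Changes are given as differences of log2(FPKM + 1), a scale that understates the change of low genes, with the standard error of the fit. A gene passed the test at a limma adjusted p under 0.05, adjusted over all genes tested in the comparison. With LncND siRNA, 8 of the 10 genes were tested, and 4 rose, 2 fell and 2 did not pass. Among all 12601 genes tested there, 66.9% passed, 36.6% upward and 30.3% downward, so a call alone is common. The members' median change was 0.12, against 0.02 over all genes tested. With the mimic, 8 were again tested, and 2 rose, 5 fell and 1 did not pass. There 63.3% of the 12558 genes tested passed, 24.6% upward and 38.6% downward. The median change was -0.74 over the 8 members and -0.06 over all genes tested. ACTA2 with LncND siRNA, and ACTA2, TPM3 and CNN2 with the mimic, changed by at least 1 log2 unit in size, a size reached by 2.65% and 2.8% of all genes tested in the 2 comparisons. The libraries of the compared groups did not overlap for 6 of the 8 genes with LncND siRNA and for 7 of the 8 with the mimic, where the share over all genes tested was 70.9% and 81.9%. These are bulk RNA samples, in which fewer cells of a type and less RNA per cell cannot be told apart.

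**Figure D2:**
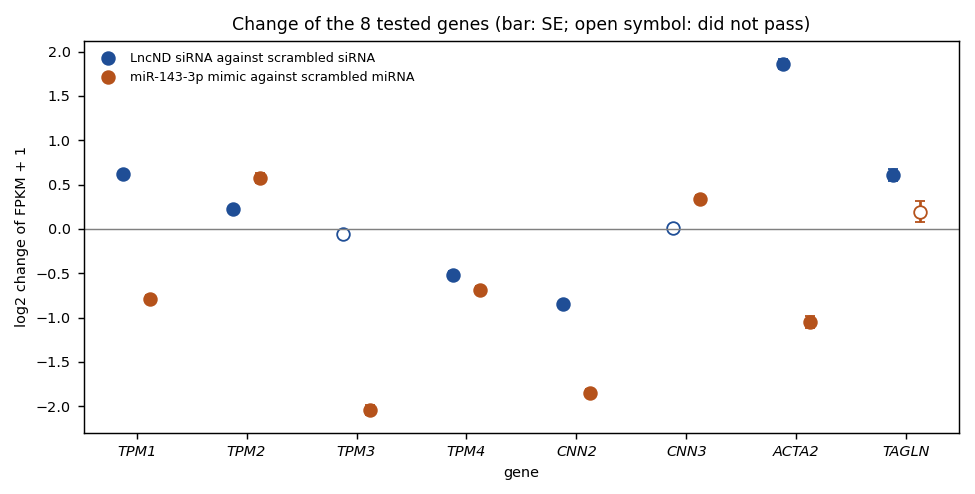
Change of log2(FPKM + 1), treated minus scrambled control (vertical axis), for the 8 genes above the filter, with LncND siRNA (blue) and the miR-143-3p mimic (orange); bars are the SE, mostly smaller than the symbols, and open symbols did not pass. ACTA2 (1.86 and -1.05) and TPM1 (0.62 and -0.79) rose with the siRNA and fell with the mimic, and TPM3 (-2.04) fell with the mimic.

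Among the tropomyosins, TPM3, the gene of several short cytoskeletal isoforms (chromosome 1, 154127779 to 154164609 in hg19), had the most negative change with the mimic. TPM3 was at 181.8 and 177.6 FPKM in the scrambled miRNA libraries and at 40.7 and 45.1 in the mimic libraries. The groups stood far apart, with both mimic libraries low. TPM3 fell by 2.04 ± 0.053 on the log2 scale (limma adjusted p = 1.30e-08), 4.19-fold in mean FPKM, and had the 8th most negative change of all genes tested. With LncND siRNA the libraries overlapped, at 152.0, 146.8 and 146.4 FPKM against 154.8, 148.9 and 159.1. That change was -0.06 ± 0.041 and did not pass (limma adjusted p = 0.26), although it did when the libraries were quantile normalized (-0.11, limma adjusted p = 0.0116). TPM3P9, a TPM3 pseudogene that could share reads with TPM3, was at only 4.003 and 4.035 FPKM in the siRNA table and 4.08 and 3.40 in the miRNA table (control and treated means).

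TPM4, which encodes a short cytoskeletal tropomyosin, fell in both comparisons (chromosome 19, 16178316 to 16213813 in hg19). With LncND siRNA it was at 166.2, 162.1 and 157.9 FPKM, against 232.0, 225.7 and 240.4 in the scrambled siRNA libraries. With the mimic it was at 113.4 and 121.9 FPKM, against 187.4 and 193.2 in the scrambled miRNA libraries. In both tables every treated library lay under every control library. The changes were -0.52 ± 0.043 (limma adjusted p = 3.22e-06) and -0.69 ± 0.048 (limma adjusted p = 2.04e-06). TPM3 and TPM4, the tropomyosins with matches in most of their transcripts, both fell with the mimic. Among the tested members without a match, CNN2 fell by 1.85 and ACTA2 by 1.05, TPM2 and CNN3 rose, and TAGLN did not pass. Of the genes tested with the mimic that have an annotated 3′ UTR, 45.8% of those with a match fell, and 36.8% of those without. The part of the matches in these changes was not tested.

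TPM1, the gene of long muscle and shorter nonmuscle isoforms, moved in opposite directions (chromosome 15, 63334837 to 63364113 in hg19). In the scrambled siRNA libraries it was at 78.7, 78.1 and 81.7 FPKM, and with LncND siRNA at 122.8, 122.7 and 122.5. In the scrambled miRNA libraries it was at 58.0 and 55.9 FPKM, and with the mimic at 32.5 and 32.3. The siRNA libraries were all high and the mimic libraries both low against their controls, with no overlap. TPM1 rose by 0.62 ± 0.036 with LncND siRNA (limma adjusted p = 3.08e-07) and fell by 0.79 ± 0.043 with the mimic (limma adjusted p = 5.12e-07). A seed match was found in 1 of its 17 transcripts.

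TPM2, a muscle tropomyosin also found in nonmuscle cells, was the least abundant of the 4 and rose in both comparisons (chromosome 9, 35681989 to 35690053 in hg19). It was at 13.5, 13.6 and 14.1 FPKM with scrambled siRNA and at 16.9, 15.9 and 15.9 with LncND siRNA. It was at 7.74 and 7.96 FPKM with scrambled miRNA and at 12.5 and 11.9 with the mimic. In each table the treated libraries were all above the controls. The changes were 0.22 ± 0.04 (limma adjusted p = 0.000714) and 0.58 ± 0.057 (limma adjusted p = 2.04e-05).

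Summed over the 4 genes, tropomyosin FPKM came to 434.8 ± 0.256 with scrambled miRNA and 205.2 ± 8.51 with the mimic (mean ± SD, n = 2), a ratio of 0.472. With LncND siRNA the sum was 449.3 ± 7.82, against 480.2 ± 14.6 with scrambled siRNA (mean ± SD, n = 3), a ratio of 0.936. The makeup of the sum differed as well. With the mimic the share of TPM3 went from 41.3% to 20.9% and that of TPM4 from 43.8% to 57.3%. With LncND siRNA the share of TPM1 went from 16.6% to 27.3% and that of TPM4 from 48.5% to 36.1%, while TPM3 held 32.1% and 33.0%. These sums and shares carry no test.

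**Figure D3:**
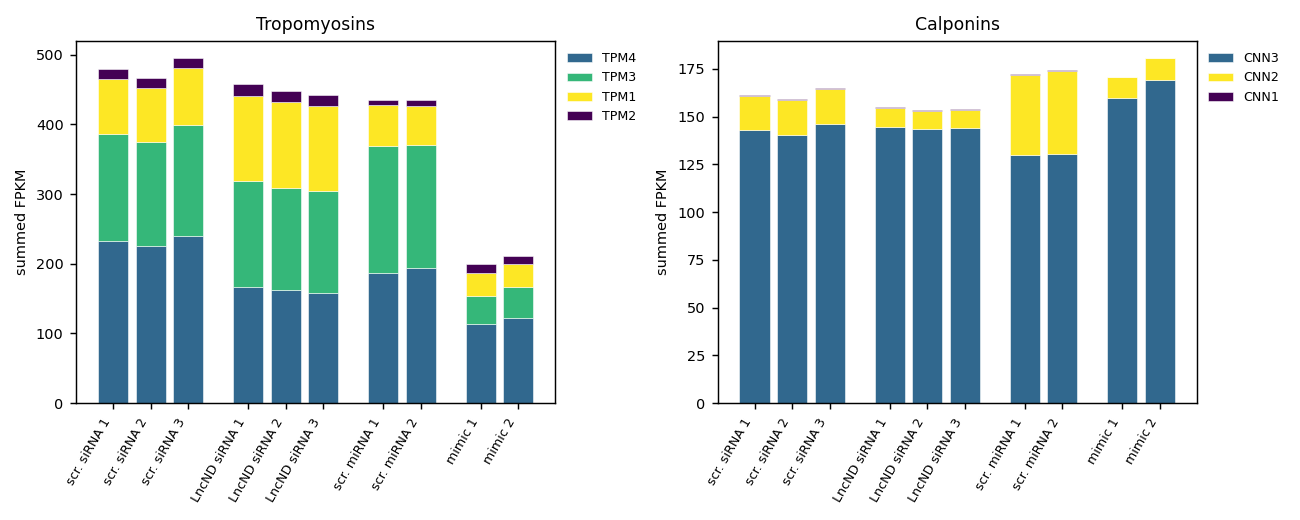
Summed FPKM (vertical axes, from 0) of the tropomyosins (left) and calponins (right), 1 bar per library, divided by gene. The tropomyosin bars of the mimic stand at 199.2 and 211.2, against 435.0 and 434.6 in their controls, and the calponin bars stay between 153.2 and 180.7 in all libraries while CNN2 takes a smaller part with either treatment.

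Among the calponins, CNN2, which is expressed in many nonmuscle cells, fell in both comparisons (chromosome 19, 1026297 to 1039064 in hg19). It was at 17.9, 18.1 and 18.5 FPKM with scrambled siRNA and at 9.89, 9.45 and 9.52 with LncND siRNA. It was at 41.7 and 43.6 FPKM with scrambled miRNA and at 11.01 and 11.16 with the mimic. All treated libraries lay between 9.45 and 11.2 FPKM, while the 2 control groups lay apart, in tables that were quantified separately. CNN2 fell by 0.85 ± 0.037 with LncND siRNA (limma adjusted p = 5.41e-08). With the mimic it fell by 1.85 ± 0.048 (limma adjusted p = 1.30e-08), 3.85-fold in mean FPKM, with the 21st most negative change of all genes tested. No seed match was found in the 3′ UTRs of its 4 transcripts.

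CNN3, the acidic calponin of brain and other nonmuscle tissues, was the most abundant calponin (chromosome 1, 95362506 to 95392735 in hg19). It was at 142.7, 140.5 and 146.1 FPKM with scrambled siRNA and at 144.6, 143.4 and 143.9 with LncND siRNA, and these libraries overlapped. The change was 0.0094 ± 0.037 (limma adjusted p = 0.834), and its sign changed with the scaling (-0.0197 by median ratio, -0.05 by quantiles). With the mimic CNN3 was at 159.6 and 169.3 FPKM, against 130.1 and 130.4 with scrambled miRNA, both mimic libraries higher. It rose by 0.33 ± 0.045 (limma adjusted p = 0.000137). The calponin sum was 173.3 ± 1.60 with scrambled miRNA and 175.7 ± 7.02 FPKM with the mimic (mean ± SD, n = 2), while the share of CNN2 in it went from 24.6% to 6.31%. With LncND siRNA that share went from 11.2% to 6.25%.

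CNN1, the calponin of differentiated smooth muscle, was under the filter of a mean of 1 FPKM (chromosome 19, 11649578 to 11661138 in hg19). It was at 0.434, 0.478 and 0.35 FPKM with scrambled siRNA and at 0.383, 0.368 and 0.454 with LncND siRNA, which overlapped. It was at 0.368 and 0.371 FPKM with scrambled miRNA and at 0.172 and 0.168 with the mimic, which did not overlap. At the depth estimated from the tables these values stand for 2.33 to 17.0 fragments per kilobase of transcript. Without the filter its mimic change was -0.23 (limma adjusted p = 0.00946).

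ACTA2, the actin of smooth muscle, had the largest change with LncND siRNA among these genes (chromosome 10, 90694830 to 90751147 in hg19). It was at 7.11, 7.49 and 6.36 FPKM with scrambled siRNA and at 27.8, 29.5 and 26.8 with LncND siRNA. It was at 11.5 and 10.2 FPKM with scrambled miRNA and at 4.70 and 4.77 with the mimic. The LncND siRNA libraries were all far above their controls, and both mimic libraries were below theirs. ACTA2 rose by 1.86 ± 0.058 (limma adjusted p = 7.66e-09), 4.01-fold in mean FPKM, with the 27th most positive change of all genes tested. With the mimic it fell by 1.05 ± 0.069 (limma adjusted p = 1.47e-06). Its share of the summed FPKM of 6 actins, which ACTB and ACTG1 dominate, went from 0.276% to 1.19% with LncND siRNA and from 0.378% to 0.194% with the mimic.

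The ACTA2 locus overlaps by 860 bases the locus of FAS, a death receptor gene, and whether fragments were assigned by strand is not given in the sources used here. FAS was at 1.02, 1.13 and 0.807 FPKM with scrambled siRNA and at 6.42, 6.24 and 6.51 with LncND siRNA. It was at 2.40 and 1.74 FPKM with scrambled miRNA and at 0.689 and 0.81 with the mimic. FAS thus moved in the same directions as ACTA2, by 1.90 ± 0.065 (limma adjusted p = 1.59e-08) and by -0.80 ± 0.11 (limma adjusted p = 0.000208). The mimic call of FAS was lost when low genes were not filtered out (limma adjusted p = 0.061), and its change was -1.34 with a pseudocount of 0.1. Its part in the ACTA2 values was not tested.

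TAGLN, also called SM22 alpha, an early marker of smooth muscle, was low in these cells (chromosome 11, 117070039 to 117075508 in hg19). It was at 1.65, 1.49 and 1.71 FPKM with scrambled siRNA and at 3.203, 3.16 and 2.66 with LncND siRNA, with no overlap. It rose by 0.61 ± 0.068 (limma adjusted p = 2.44e-05). With the mimic it was at 2.54 and 1.93 FPKM, against 2.05 and 1.59 with scrambled miRNA, and the libraries overlapped. That change was 0.20 ± 0.11 and did not pass (limma adjusted p = 0.164). It did pass without mimic replicate 2 (0.33, limma adjusted p = 0.0296) and without scrambled miRNA replicate 1 (0.31, limma adjusted p = 0.0482). The locus overlaps that of LOC100652768 by 2591 bases. LOC100652768 was at 0.916, 1.04 and 0.945 FPKM with scrambled siRNA and at 1.86, 1.40 and 1.59 with LncND siRNA, and its part in the TAGLN values was not tested.

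MYL9, a regulatory light chain of smooth muscle and nonmuscle myosin (chromosome 20, 35169886 to 35178226 in hg19), was at the lowest listed value of 0.001 FPKM in 8 of the 10 libraries. The exceptions were 0.0335 FPKM in LncND siRNA replicate 2 and 0.0253 in scrambled miRNA replicate 2, each less than 1 estimated fragment per kilobase. A difference was not detectable at this depth, and MYL9 was not tested.

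The difference between the effect of LncND siRNA and that of the mimic was tested directly over all 10 libraries. The 2 comparisons share no control library. It passed for 8 of the 8 genes tested, and for 60.2% of the 12327 genes tested in all. ACTA2 had the largest difference at 2.91 ± 0.093 (limma adjusted p = 7.43e-11), followed by TPM3 at 1.99 ± 0.069 and TPM1 at 1.41 ± 0.052. For CNN2, which fell in both, the effects differed by 1.00 ± 0.057 (limma adjusted p = 1.22e-08). For TPM2 and CNN3 the differences were -0.35 ± 0.065 and -0.32 ± 0.056. TPM4 differed by 0.17 ± 0.066 (limma adjusted p = 0.0379), a call lost in 9 of 15 alternatives and, in 1 more, turned to -0.023 by quantile normalization (limma adjusted p = 0.727). Among those 9, the omissions of LncND siRNA replicate 2, of scrambled siRNA replicate 1 or 2, of mimic replicate 1 and of either scrambled miRNA library each ended it. TAGLN differed by 0.42 ± 0.14 (limma adjusted p = 0.0178), a call lost in 4 alternatives, without mimic replicate 2 and without scrambled miRNA replicate 1 among them. ACTA2 and TPM1 were the 2 members that rose with LncND siRNA and fell with the mimic, a pattern held by 10.6% of the genes tested in both. CNN2 and TPM4 were the 2 members that fell in both, as did 16.4% of the genes tested in both.

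The cell type markers moved as well. With the mimic, the summed FPKM of the 8 smooth muscle markers was 29.4 to 29.5, against 57.2 to 59.1 in its controls. Most of that difference was SYNPO2, at 18.76 and 19.58 FPKM with the mimic and 45.11 and 47.26 with scrambled miRNA. SMTN was at 10.11 and 9.281 FPKM against 11.11 and 10.89. The other smooth muscle markers, the member CNN1 among them, averaged under 1 FPKM and added little to the sum. The summed FPKM of the 10 fibroblast markers was 196.5 to 200.5 with the mimic against 240.9 to 241.7. The neuroblast sum was 1600 to 1603 against 2154 to 2160. With LncND siRNA the smooth muscle sum was 52.1 to 54.6 against 59.3 to 64.6, the fibroblast sum 271.2 to 273.5 against 277.4 to 282.0, and the neuroblast sum 1225 to 1283 against 1144 to 1183. Single markers moved apart from these sums. DCN, a matrix proteoglycan of fibroblasts, was at 17.28, 16.06 and 15.02 FPKM with scrambled siRNA and at 50.7, 53.8 and 54.4 with LncND siRNA, all far higher (1.66 ± 0.052, limma adjusted p = 7.83e-09). It was at 12.01 and 10.87 FPKM with scrambled miRNA and at 7.98 and 7.69 with the mimic, both lower (-0.49 ± 0.064, limma adjusted p = 0.000111). DCN thus moved in the same directions as ACTA2 and TPM1. With LncND siRNA TWIST1 fell by 0.38 and FBN1 rose by 0.39. S100B, a calcium-binding protein of glia, rose from 3.06 to 5.92 FPKM with LncND siRNA (0.77 ± 0.044, limma adjusted p = 2.62e-07) and fell from 3.92 to 2.84 with the mimic (-0.35 ± 0.091, limma adjusted p = 0.00726). ERBB3, under the filter and not tested, was at 0.165 and 0.423 FPKM in the siRNA table and at 0.332 and 0.199 in the miRNA table (control and treated means), with no overlap in either. The part of these markers in the results above was not tested.

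Beyond the 10 genes, 75 related genes in 4 lists, a few of them in more than 1 list, were described. Over all genes tested, 36.6% rose and 30.3% fell with LncND siRNA, and 24.6% rose and 38.6% fell with the mimic. The median changes over all genes tested were 0.02 and -0.06. Counts of the related genes, here and for each list below, were not tested against these shares. In LncND siRNA cells 18 of the 54 tested rose and 24 fell, with a median change of -0.07. In mimic cells 8 of the 55 tested rose and 32 fell, with a median change of -0.20. That mimic split depended on the scaling, with 11 up and 27 down by median ratio and 12 up and 27 down by quantiles. The median mimic change over all genes moved as well, to 0.0016 by median ratio and 0.0153 by quantiles. Without the filter on low values, 75 related genes were tested with the mimic and 25 passed, 2 up and 23 down. The shares of all genes that rose or fell at these alternative settings are not given here. These splits therefore cannot be read as particular to the related genes.

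Of 21 other smooth muscle contractile genes, 14 were tested in each comparison. With LncND siRNA 5 rose and 5 fell (median 0.0025). MYL6, the essential light chain of nonmuscle and smooth muscle myosin, rose from 687.0 to 1018 FPKM (0.57 ± 0.059, limma adjusted p = 1.56e-05). PPP1R12B, a myosin phosphatase subunit, rose by 0.47, PDLIM7, a filament scaffold, rose by 0.42, and FHL1, a LIM domain protein, fell by 0.39. With the mimic 2 rose and 10 fell (median -0.30). SYNPO2, an actin-bundling protein, fell from 46.2 to 19.2 FPKM (-1.23 ± 0.048, limma adjusted p = 8.13e-08). CSRP2, a LIM protein of smooth muscle, fell by 0.72, MYLK, the kinase of the regulatory light chain, fell by 0.59, and FHL1 fell by 0.56. The MYLK call was lost without the filter on low values (limma adjusted p = 0.101).

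Of 14 other actins, nonmuscle myosins and close relatives, 10 were tested. With LncND siRNA 3 rose and 3 fell (median -0.06). MYL12B, a nonmuscle regulatory light chain, rose from 126.8 to 198.5 FPKM (0.64 ± 0.041, limma adjusted p = 5.21e-07). MYH10, the heavy chain of nonmuscle myosin IIB, fell by 0.62, and the neuronal transgelin TAGLN3 rose by 0.46. With the mimic 1 rose and 5 fell (median -0.12). TAGLN2, the nonmuscle transgelin, was at 383.5 and 381.0 FPKM with scrambled miRNA and at 143.3 and 148.1 with the mimic, which lay far below. It fell by 1.39 ± 0.042 (limma adjusted p = 2.20e-08). In the siRNA table TAGLN2 lay between 137.2 and 154.8 FPKM in all 6 libraries, and its change did not pass (-0.06, limma adjusted p = 0.337). MYL12A fell by 0.53 and ACTG1, a cytoplasmic actin, fell by 0.30, while MYL6 rose by 0.24, a call lost without the filter (limma adjusted p = 0.108) and without scrambled miRNA replicate 2 (limma adjusted p = 0.0569).

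Of 24 tropomyosin partners at the filament, 14 were tested with LncND siRNA, and 6 rose and 6 fell (median 0.09). TNNI3, the troponin I gene of cardiac muscle, rose from 3.64 to 6.68 FPKM (0.73 ± 0.063, limma adjusted p = 4.31e-06). TMOD1, which caps the pointed end of tropomyosin-coated filaments, rose by 0.69, and CFL1, the filament-severing cofilin, rose by 0.29. ACTN4, an actin crosslinker, fell by 0.62. With the mimic 15 were tested, and 2 rose and 8 fell (median -0.20). ACTN1, another crosslinker, fell from 55.8 to 33.2 FPKM (-0.73 ± 0.046, limma adjusted p = 1.03e-06), and ZYX, a focal adhesion protein, fell by 0.61. TNNI3 fell by 0.47 and TNNI2, the fast skeletal troponin I, rose by 0.39. Both troponin calls were lost without the filter (limma adjusted p = 0.122 and 0.242), and that of TNNI2 without mimic replicate 1 (limma adjusted p = 0.111).

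Of 20 genes for SRF, its cofactors and regulators of actin assembly upstream of it, 18 were tested. With LncND siRNA 5 rose and 11 fell (median -0.17), and with the mimic 5 rose and 9 fell (median -0.12). RHOB, a small GTPase that controls actin assembly, rose in both. It was at 15.8, 15.9 and 16.1 FPKM with scrambled siRNA and at 44.1, 47.6 and 43.7 with LncND siRNA. It was at 15.2 and 14.8 FPKM with scrambled miRNA and at 51.55 and 51.65 with the mimic. All treated libraries were far above all controls, and RHOB rose by 1.45 ± 0.041 (limma adjusted p = 5.20e-09) and by 1.72 ± 0.045 (limma adjusted p = 1.30e-08). The formin DIAPH3 fell by 0.87 and 0.70 with siRNA and mimic, and ELK3, a ternary complex factor that partners SRF, fell by 0.73 and 0.77. The SRF coactivator MKL2 fell by 0.57 with LncND siRNA and by 0.43 with the mimic. Its relative MKL1 rose by 0.21 ± 0.054 with LncND siRNA (limma adjusted p = 0.00578). With the mimic MKL1 rose by 0.16 ± 0.063, which passed only narrowly (limma adjusted p = 0.0446). The formin DIAPH1 fell by 0.40 with LncND siRNA and by 0.81 with the mimic. SRF itself, between 9.33 and 11.2 FPKM in all 10 libraries, fell by 0.13 ± 0.037 with LncND siRNA (limma adjusted p = 0.00972), and its mimic change of 0.11 ± 0.055 did not pass (limma adjusted p = 0.121).

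**Figure D4:**
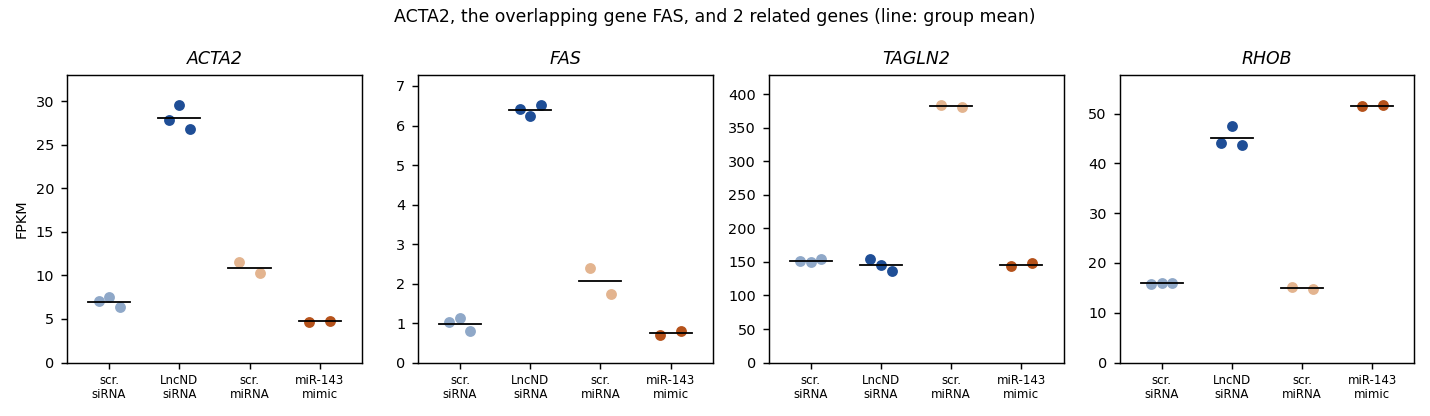
FPKM (vertical axes, from 0) of ACTA2, of FAS, whose locus overlaps it, and of TAGLN2 and RHOB in the 10 libraries by group; points are libraries and lines group means. FAS follows ACTA2 in direction in both comparisons, TAGLN2 drops from 383.5 and 381.0 to 143.3 and 148.1 with the mimic, and RHOB is higher with both treatments.

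The genes with the pattern most like that of ACTA2, the member with the largest change with LncND siRNA, were found by Pearson's r of log2(FPKM + 1) minus the mean of the control group of the same table, over 10 libraries and 12327 genes. They were AEN (r = 0.9995), SPATA18, CLU, ENC1 and BBC3 (r = 0.9974). Their changes with LncND siRNA ran from 0.54 in AEN to 2.04 in CLU, and with the mimic from -1.02 in CLU to -0.32 in AEN. Those most like TPM3, the member with the largest change with the mimic, were RNF114 (r = 0.9987), GATM, SPA17, CRISPLD1 and DIXDC1 (r = 0.998). Their mimic changes ran from -1.95 in GATM to -0.44 in RNF114, and their LncND siRNA changes from -0.07 to -0.0099. A seed match of miR-143-3p was found in at least 1 transcript of 2 of the 5 genes like ACTA2 and of 4 of the 5 like TPM3. The share was 26.5% among genes tested with the mimic that have an annotated 3′ UTR. Both sets of 5 were picked by their changes in these same data, so these counts are a description and no test. Over all genes tested with the mimic, the median change was -0.12 in the 2970 genes with a match and -0.05 in the 8226 genes without. The libraries share their groups, so these r values describe the group pattern more than the spread within groups.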

How the data were processed

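Per the labels' protocols, RNA was extracted with a MirVana kit and poly(A) libraries were made with a stranded TruSeq kit. Per the submitters' processing notes, TopHat (listed as 1.0.0), Cufflinks and hg19 were used. For the annotation, strand setting and filter, nothing is given in the sources used here. The 2 deposited tables hold FPKM, as the authors computed it, each for 25275 entries. Entries off the assembled chromosomes, 1304 in each table, were left out first. Of a repeated gene name the entry with the highest mean was then kept, and genes whose kept entry held a status word were left out. The members and the gene lists were chosen with earlier results of these data known.

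Each table was fitted with limma 3.58.1 (R 4.3.3; lmFit, eBayes with trend) on log2(FPKM + 1), over genes whose mean reached 1 FPKM, 2-sided, with Benjamini-Hochberg adjustment over all genes. The difference of the effects was a contrast of 4 group means over 10 libraries. This code was tested on simulated data. From each list, up to 4 genes with the largest change among those that passed are named. TPM3P9, FAS, LOC100652768, RNY4, SRF and MKL1 are named outside that rule, for their sequence, position, level or role. The single cell type markers were named after their values were seen.

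Read counts were not used here. Depth was estimated from the smallest steps of olfactory receptor values as 13.9 to 44.4 M fragments per library, a rough figure that rests on 3 genes in the thinnest case. Same-group libraries correlated at r = 0.988 to 0.997 across genes. Alternatives were a pseudocount of 0.1, no filter, median-ratio scaling, quantile normalization, a replicate block and leaving out each library. Seed matches and CArG boxes were found by exact search. The summed level of the Schwann cell markers is not reported here.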

Additional observations from a re-analysis of the deposited data

How the results depend on the processing

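The members that passed numbered 6 to 7 with LncND siRNA, 7 to 8 with the mimic and 6 to 8 for the difference of the effects, over all alternatives run. ACTA2, TPM1, TPM2 and CNN2 kept direction and call in all 3 tests under each. With the mimic, 40 of the 55 related genes tested passed, and 25 of 75 without the filter on low values. At that setting low genes entered both the fit and the adjustment, and the share over all genes is not given here. CNN3 with LncND siRNA, which did not pass, turned to -0.0197 by median ratio, -0.0516 by quantiles and -0.0037 without scrambled siRNA replicate 2, and lay between -0.0037 and 0.0245 with 1 library left out. The difference for TPM4 turned to -0.0233 by quantiles. The cause was not tested. Same-numbered libraries deviated together with r = 0.0682, 0.207 and -0.0532 among the siRNA libraries and 0.135 among the miRNA libraries, so the numbers were not taken to pair them. With the replicate block 6, 7 and 7 members passed, and 41 and 39 related genes, and the call lost among the members was that of the TPM4 difference (limma adjusted p = 0.0728). With LncND siRNA, 50 related genes passed without LncND siRNA replicate 1, the library with the high RNY4 value, and 40 when any other single library was left out. With 1 library left in a mimic or scrambled miRNA group, that library was assumed to vary like the other group. Values under 1 FPKM, those of CNN1 and MYL9, are limited by depth.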
